A study of Homo sapiens with 18 samples.

Results

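Untreated SCC25 cells were compared with untreated SCC1 cells by the assay for transposase-accessible chromatin with sequencing (ATAC-seq), in which a transposase cuts DNA that is free of nucleosomes so that read depth follows how open the chromatin is. Both are established cell lines grown from head and neck squamous cell carcinoma. The cells of both groups received PBS, the vehicle of the antibody cetuximab, every day for 5 days. The comparison took all PBS libraries of these lines that have a column in the merged table, which were SCC25 replicates 1, 2 and 3 and SCC1 replicates 1 and 3, or 5 of the 17 libraries of the series. SCC1 PBS replicate 2 was not analysed here. The labels do not say whether replicates came from separate cultures, so p-values measure only the spread between these libraries, which may be technical. Of the 115087 regions of the table, the lowest 25% by mean signal over the 5 libraries were left out and 86315 were tested. The other libraries of the series are the line SCC6 with PBS or cetuximab and the same SCC25 and SCC1 lines given cetuximab at 100 nM for the same time.

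Squamous epithelium lines the mouth and is built on a basal layer held to the basement membrane by hemidesmosomes. Transcription factors such as TP63, SOX2 and KLF4 set the basal and differentiating states, and carcinoma cells can lose part of this program and open mesenchymal, neural or glandular genes in its place. Squamous carcinomas also carry large gains and losses of chromosome arms, and a change in the number of DNA copies changes ATAC-seq reads over the whole segment, because each copy can be cut.

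All 10 squamous markers had a promoter region in the table, among them TP63 with a mean signal of 36.4 in SCC25 and 37.3 in SCC1, KRT5 with 73.4 and 56.1, and GRHL2 with 149 and 187. Their summed signal ranged from 697 to 803 in SCC25 and from 952 to 1.13e+03 in SCC1. Of 15 markers of immune, endothelial, stromal, melanocytic, neural, hepatic and muscle cells, 5 had a promoter region and the defining genes PTPRC, CD3E, SPI1, PECAM1, CDH5, COL3A1, LUM, SOX10, ALB and MYOD1 had none. DCN was at the level of 1 read in both lines (0.649 and 1.21), while COL1A1 (130 and 101), PMEL (451 and 431, in a region shared with RAB5B), MITF (80.3 and 179) and RBFOX3 (21.5 and 22.5) had reads. The sum of these other markers ranged from 667 to 697 in SCC25 and from 711 to 759 in SCC1. Neither line was therefore empty at its squamous markers, and the part of other cell types in the results was not tested.

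The SCC25 libraries held 13408698, 6533269 and 5509462 reads in regions and the SCC1 libraries 3577180 and 4171650, so that line and depth cannot be told apart in the deposited values. Thinning every library to the lowest depth gave 27318 higher and 19695 lower regions, near the main count below. Between 0.228% and 1.34% of tested regions were at the lowest value in the SCC25 libraries, against 8.05% and 4.74% in the SCC1 libraries. Correlations of log2 signal between replicates were 0.929 to 0.95 in SCC25 and 0.913 in SCC1.

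The lines differed over much of the accessible genome. Signal was higher in SCC25 at 29225 regions (33.9% of those tested) and lower at 21448 (24.8%) at an adjusted p under 0.05. The 5 libraries separated by line with no overlap in 62356 regions, or 72.2%. Genes named below for their calls mostly come from this share, so a lack of overlap at them describes their values only. The higher regions differed more, with a median log2 difference of 1.92 against -1.17 for the lower ones. A difference of over 4-fold was found at 13871 higher and 3666 lower regions, and one of over 16-fold at 1558 and 332. The regions were merged from called peaks, and more of them held a peak in SCC25. The SCC25 libraries had a peak in 70966, 53521 and 47848 of all regions and the SCC1 libraries in 34259 and 33266. The part of this choice of regions in the number and size of higher calls was not tested. All log2 differences are SCC25 minus SCC1 on the scale of log2(signal + 1), which understates the change of low regions. The balance of the directions depends on scaling. Higher regions were 57.7% of the calls as reported, 46.9% (25191 higher, 28528 lower) with each library centred on its median, and 47% (24575 and 27686) after quantile normalization. The median over all tested regions, 0.10 as reported, was -0.13 under both of these scalings.

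Promoters and distal regions differed in the balance of their directions. Among 14547 regions within 1 kb of a protein-coding start site, 2952 were higher in SCC25 (20.3%) and 4679 were lower (32.2%), with a median of -0.17. Among the 71768 regions farther away, 26273 were higher (36.6%) and 16769 lower (23.4%), with a median of 0.22. Promoters took 30.4% to 30.7% of the tested signal in the SCC25 libraries and 35.1% or 35.2% in the SCC1 libraries, and the part of this difference in single genes was not tested. Read as 1 promoter region for each gene, 12723 genes were tested, of which 2484 were higher (19.5%) and 4316 lower (33.9%), with a median log2 difference of -0.19. This balance turned with the GC content of the regions. Higher calls were 36.5% of gene promoter calls as reported, 21.7% (1718 higher, 6194 lower, median -0.42) with libraries centred, 25.9% (1677 and 4798) by DESeq2 and 71.3% (3844 and 1549, median 0.20) after a trend with GC content was removed. Gene groups are therefore read below against the median of all gene promoters and the 19.5% and 33.9% of them that were called.

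Cetuximab libraries gave a second measurement of the same 2 lines from other libraries. There, 31.6% of the tested regions were higher in SCC25 and 21.6% were lower. Of the regions called higher in untreated cells, 28050 (96%) had the same direction and 22582 (77.3%) were called. Of those called lower, 19765 (92.2%) had the same direction and 13588 (63.4%) were called. Over all tested regions, called or not, 83.2% had the same direction. Genes named below are given by their PBS values, and some were not called in the cetuximab libraries. Examples there are KRT6A (0.07, adjusted p = 0.828), EPHA4 (-0.28, 0.231), CD14 (-0.28, 0.524), HOXD13 (-0.13, 0.655), HOXC4 (0.39, 0.21) and LOXL2 (-0.15, 0.774). A missing call there is not a test of a change with cetuximab.

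The 8 promoters higher in SCC25 with the smallest adjusted p included a hormone receptor, an ephrin receptor and a transcription factor of the nervous system. At PTH2R, a receptor of the parathyroid hormone family, signal was 770, 693 and 700 in SCC25 replicates 1 to 3 and 10.4 and 15.6 in SCC1 replicates 1 and 3 (log2 difference 5.71 ± 0.16, SE, adjusted p = 1.06e-09). At EPHA7, an ephrin receptor tyrosine kinase, it was 366, 425 and 345 against 3.9 and 10 (5.68 ± 0.28, adjusted p = 1.43e-08). Each SCC25 library stood far above both SCC1 libraries at these genes, which were chosen among promoters whose lines do not overlap. PAX6, a transcription factor of the eye and brain whose region is shared with the unnamed gene ENSG00000285283, had 271, 234 and 236 in SCC25 and 13 and 7.82 in SCC1 (4.48 ± 0.22, adjusted p = 1.50e-08). The centrosome gene CDK5RAP2 (4.52 ± 0.17), the calcium-activated chloride channel ANO1 (3.64 ± 0.16), the neuronal adhesion gene NRXN3 (2.78 ± 0.12), the hyaluronan-binding membrane protein CEMIP2 (1.89 ± 0.08) and the zinc finger gene ZNF724 (3.80 ± 0.17) completed them. At CEMIP2 the SCC1 libraries were already open, with 238 and 256 against 950, 924 and 875.

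The promoters lower in SCC25 were of 2 kinds. At some, SCC25 had little signal while SCC1 was open. PCDH9, a protocadherin, had 12.1, 7.93 and 7.63 in SCC25 and 225 and 217 in SCC1 (log2 difference -4.47 ± 0.28, adjusted p = 8.22e-08). DMRTA2, a transcription factor of the developing brain, had 12.4, 10.8 and 10.2 against 191 and 169 (-3.90 ± 0.26, adjusted p = 1.16e-07). ZFP42, a pluripotency gene, had no more than 1 read in any SCC25 library and 212 and 221 in SCC1. In the SCC6 PBS libraries the mean signal was 285 at PCDH9, 2.44 at DMRTA2 and 104 at ZFP42. At the others, the promoter was open in both lines and lower in SCC25. These were CEP57, a centrosome gene whose region is shared with FAM76B (-1.69 ± 0.10), EDEM3 of glycoprotein degradation (-1.82 ± 0.11), TOR1AIP1 of the nuclear envelope (-1.94 ± 0.12), TYMS, thymidylate synthase (-1.55 ± 0.10), and the cytokine gene IL16 (-2.19 ± 0.14). EDEM3, for example, had 213, 192 and 210 in SCC25 and 798 and 662 in SCC1.

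**Figure D1:**
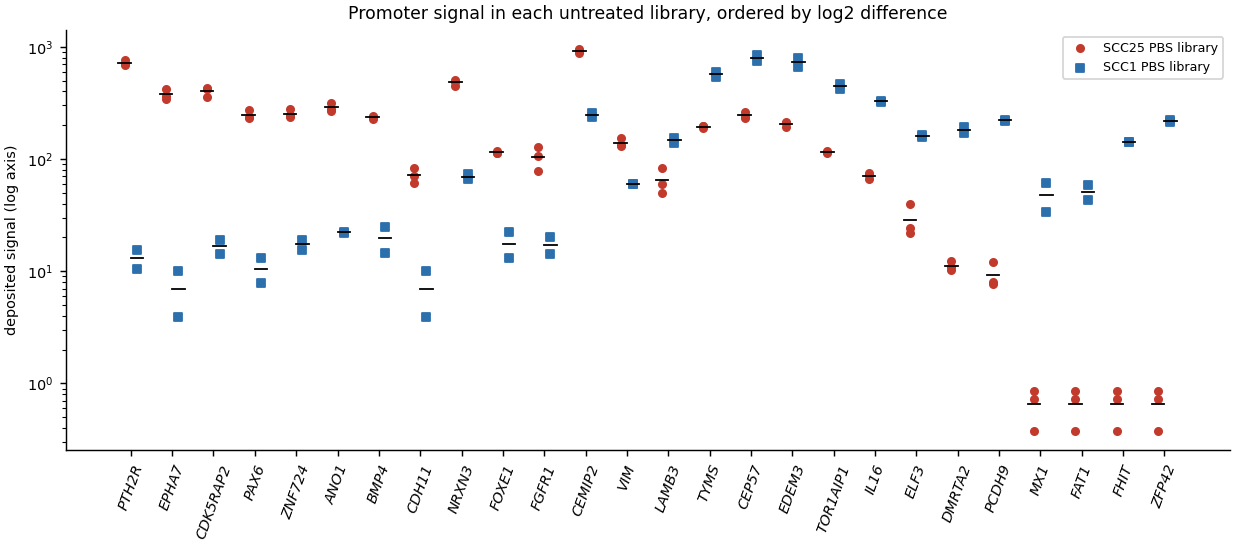
Deposited signal (log axis) at named promoters in each untreated library, ordered by log2 difference, with SCC25 as red circles, SCC1 as blue squares and a bar at each line's mean. The SCC25 libraries lie above both SCC1 libraries from PTH2R to VIM and below them from LAMB3 to ZFP42, and at MX1, FAT1, FHIT and ZFP42 they lie at 0.377, 0.721 and 0.848, which is the level of 1 read.

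Of 27 genes listed as squamous transcription factors with a tested promoter, 8 were higher and 9 lower in SCC25, with a median log2 difference of 0.03. FOXE1, a forkhead factor of thyroid and palate development, had 117, 113 and 114 in SCC25 and 13 and 22.3 in SCC1 (2.68 ± 0.24, adjusted p = 1.41e-06). MAF (1.69 ± 0.28), which acts in late keratinocyte differentiation, was also higher. ELF3, an epithelial ETS factor, was the lowest of the list, with 39.6, 24.5 and 22.1 against 157 and 164 (-2.49 ± 0.25, adjusted p = 3.57e-06). TRIM29 (-1.63 ± 0.19), which is also among the squamous markers above, and the homeobox factor BARX2 (-1.53 ± 0.25) followed it. TP63, the master factor of the lineage, overlapped between the lines (-0.05 ± 0.27, adjusted p = 0.877), yet 9 of the 17 tested regions within 100 kb of its start sites were lower and 3 were higher.

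Basal keratinocyte and hemidesmosome genes had 2 of 17 promoters higher and 9 lower, with a median of -0.47, or -0.28 relative to all gene promoters (-0.18 after quantile normalization and -0.28 after GC removal). LAMB3 encodes a chain of laminin-332, the ligand on which hemidesmosomes rest, and had 84, 59.9 and 50 in SCC25 and 154 and 140 in SCC1 (-1.20 ± 0.21, adjusted p = 0.000316). The lines did not overlap there. KRT15 was lower (-0.79 ± 0.18), and CD151 (0.78 ± 0.18) and the integrin ITGB1 (0.64 ± 0.17) were higher. The decrease of KRT15 was not called after removal of the GC trend (-0.43, adjusted p = 0.0868).

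Among 4 stress keratins with a tested promoter, KRT75 (3.41 ± 0.52, adjusted p = 9.82e-05) and KRT6A (1.19 ± 0.32, adjusted p = 0.00572) were higher. KRT6A read 82.5, 63.5 and 71.3 in SCC25 and 19.5 and 49.1 in SCC1, and its call was lost without SCC1 replicate 1 (0.54, adjusted p = 0.0539). KRT6A has near-identical copies in KRT6B and KRT6C, so its reads are uncertain. Desmosome and tight junction genes were divided, with 5 of 14 higher and 7 lower. The desmosomal cadherins DSG2 (1.39 ± 0.18) and DSC3 (1.04 ± 0.13) were higher, while CLDN1 (-1.06 ± 0.18), CLDN7 (-0.97 ± 0.24) and TJP1 (-0.71 ± 0.19) were lower, the last 2 of them not called after GC removal (adjusted p = 0.185 and 0.411).

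Only 16 of 44 keratinocyte differentiation genes had a tested promoter, of which 3 were higher and 6 lower. PI3, the protease inhibitor elafin, had 10.6, 5.05 and 7.63 in SCC25 and 45.5 and 65.9 in SCC1 (-2.72 ± 0.41, adjusted p = 8.47e-05). S100A9, a calprotectin subunit (-2.02 ± 0.30), and IVL, the cornified envelope protein involucrin (-1.83 ± 0.33), were lower as well. TGM1, which cross-links that envelope, went the other way, with 260, 219 and 258 against 103 and 100 (1.26 ± 0.13, adjusted p = 4.66e-06). KLK6 (0.72 ± 0.20; not called by DESeq2, adjusted p = 0.0669) and EMP1 (0.50 ± 0.15) were the other 2 higher genes, and the call of EMP1 was lost without SCC1 replicate 1 (0.35, adjusted p = 0.0771), with libraries centred (0.26, adjusted p = 0.147) and by DESeq2 (0.37, adjusted p = 0.117). Of 14 genes of simple and glandular epithelium, 4 were higher and 7 lower (median -0.44). The intestinal factor CDX2 (3.32 ± 0.47) and the endodermal factors FOXA1 (1.10 ± 0.12, in a region shared with TTC6) and FOXA2 (0.92 ± 0.16) were higher in SCC25. The protease ST14 was lower (-0.85 ± 0.19; not called after GC removal, adjusted p = 0.0965), and KRT19 was lower (-1.40 ± 0.44) with its call lost without SCC1 replicate 1 (-0.83, adjusted p = 0.167) or SCC25 replicate 3 (-1.21, adjusted p = 0.0519) and after GC removal (-0.94, adjusted p = 0.141).

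Of 33 mesenchymal genes, 9 were higher and 9 lower (median 0.07, or 0.26 relative to all gene promoters). The relative median was 0.29 after quantile normalization and 0.30 after GC removal. The highest of these genes differed more than the lowest, as higher calls did over all tested regions (median 1.92 against -1.17 for lower calls). CDH11, a mesenchymal cadherin, had 71.2, 60.6 and 83.1 in SCC25 and 3.9 and 10 in SCC1 (3.29 ± 0.36, adjusted p = 6.43e-06). TWIST2, a repressor of epithelial genes, had 40.3, 35.3 and 42.4 against 2.6 and 5.58 (3.05 ± 0.40, adjusted p = 2.97e-05), and the collagen gene COL5A2 had 38.4, 32.5 and 54.3 against 2.6 and 11.2 (2.66 ± 0.48, adjusted p = 0.000381). These 3 promoters were near the level of a few reads in SCC1. VIM, the intermediate filament of mesenchymal cells, was open in both lines, with 153, 131 and 134 against 59.8 and 60.3 (1.19 ± 0.16, adjusted p = 3.56e-05). LAMC1 (-1.78 ± 0.19), SPARC (-1.39 ± 0.27) and LOXL2 (-1.09 ± 0.43) were lower, and the call of LOXL2 was lost without SCC1 replicate 1 (adjusted p = 0.134), SCC25 replicate 1 (0.0572) or SCC25 replicate 3 (0.134) and after GC removal (-0.62, adjusted p = 0.33). Of 10 matrix metalloproteinase genes, MMP13 (1.14 ± 0.32), MMP1 (0.86 ± 0.21) and the urokinase gene PLAU (0.89 ± 0.22) were higher and the inhibitor TIMP3 was lower (-1.53 ± 0.24). MMP13 was not called without SCC25 replicate 1 (0.92, adjusted p = 0.062).

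The promoter of EGFR, the target of cetuximab, did not separate the lines, with 132, 110 and 111 in SCC25 and 124 and 109 in SCC1 (0.01 ± 0.16, adjusted p = 0.953). ERBB2, in a region shared with PGAP3, also overlapped (-0.35 ± 0.24, adjusted p = 0.222), and so did AXL (0.27 ± 0.20, adjusted p = 0.254). AXL was called higher after GC removal (0.73, adjusted p = 0.0222), and ERBB2 was called lower with libraries centred (-0.59, adjusted p = 0.0362) and without SCC1 replicate 1 (-0.64, adjusted p = 0.0389). Other members of the receptor list did separate them. FGFR1 had 106, 129 and 78.9 in SCC25 and 14.3 and 20.1 in SCC1 (2.53 ± 0.26, adjusted p = 3.81e-06), and NTRK2 (1.75 ± 0.17) and ROR2 (1.42 ± 0.23) were higher too. EPHA1 (-1.22 ± 0.23), EPHA4 (-1.11 ± 0.20) and ROR1 (-0.92 ± 0.19) were lower, ROR1 no longer after GC removal (-0.50, adjusted p = 0.111). IGF1R (0.42 ± 0.17, adjusted p = 0.044) lay at the threshold, with its call lost when SCC1 replicate 1 (adjusted p = 0.147), SCC25 replicate 1 (0.134) or SCC25 replicate 3 (0.111) was left out, with libraries centred (0.19, adjusted p = 0.327), by DESeq2 (0.30, adjusted p = 0.276) and by edgeR (0.31, adjusted p = 0.141). Over the 23 receptors tested, 4 were higher and 7 lower, with a median of -0.15.

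The ligands of these receptors were mostly less open in SCC25, with 7 of 12 lower and 1 higher and a median of -0.95. Relative to all gene promoters this median was -0.76 as reported and -0.71 both after quantile normalization and after removal of the GC trend. BTC, betacellulin, a ligand of EGFR, had 69, 74.3 and 62.8 in SCC25 and 252 and 278 in SCC1 (-1.94 ± 0.15, adjusted p = 4.42e-07). FGFBP1, which releases fibroblast growth factors from the matrix, had 45.6, 38.9 and 33.1 against 168 and 182 (-2.14 ± 0.20, adjusted p = 1.65e-06). Both genes lie in segments of chromosome 4 that were lower as a whole. NRG2, a neuregulin, was lower as well (-2.31 ± 0.36, adjusted p = 0.000134). EGF itself had the 1 higher promoter, with 23.7, 23.1 and 17 in SCC25 and no more than 1 read in either SCC1 library, which makes it at least 5.86-fold higher against a floor of 3 reads per library (adjusted p = 6.13e-05).

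Among the other genes the study names, TGFBR3, a co-receptor of transforming growth factor beta, had 354, 265 and 319 in SCC25 and 139 and 135 in SCC1 (1.17 ± 0.13, adjusted p = 8.95e-06). TFAP2A, an AP-2 transcription factor of epidermis and neural crest, had 405, 379 and 359 against 526 and 499 (-0.43 ± 0.09, adjusted p = 0.00128). The lines did not overlap at TFAP2A, but its difference was -0.03 after the GC trend was removed (adjusted p = 0.794). VEGFA lay at the threshold (-0.49 ± 0.20, adjusted p = 0.0486), and its call was lost without SCC1 replicate 1 (adjusted p = 0.322), SCC25 replicate 1 (0.0853) or SCC25 replicate 2 (0.17), with a pseudocount of 0.5 (0.0513), after quantile normalization (0.0533), after thinning (0.0915) and after GC removal (-0.03, adjusted p = 0.935). In all, 4 of these 9 genes were higher and 2 lower.

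Patterning genes held some of the largest differences. In the HOX clusters, 2 of 19 promoters were higher and 9 lower (median -0.43, or -0.25 relative to all gene promoters), led by HOXA4 (-0.99 ± 0.16), HOXA7 (-0.98 ± 0.22) and HOXD13 (-0.93 ± 0.20). HOXA7 and HOXD13 were not called after GC removal (adjusted p = 0.103 and 0.0834), nor HOXD13 with all 8 PBS libraries in 1 fit (0.0664). HOXC4 was higher (1.07 ± 0.21), and HOXC11 (1.27 ± 0.45, adjusted p = 0.0257) lost its call without any 1 of SCC25 replicates 1, 2 or 3 (adjusted p = 0.0622, 0.0833 and 0.0833) or SCC1 replicate 1 (0.204), with libraries centred (0.0533), after quantile normalization (0.22) or thinning (0.0632), by DESeq2 (0.119) and by edgeR (0.0502). Among 42 homeobox, T-box and related factors outside these clusters, 14 were higher and 12 lower. Next to PAX6, LHX2, a LIM factor of brain and hair follicle, had 128, 117 and 120 in SCC25 and 6.51 and 7.82 in SCC1 (3.92 ± 0.24, adjusted p = 6.41e-08). GATA4, a factor of heart and gut, had 23, 18.7 and 21.2 in SCC25 and at most 1 read in SCC1, at least 5.79-fold higher (adjusted p = 5.68e-05). In the other direction, TBX18 had 110, 119 and 83.1 against 397 and 404 (-1.95 ± 0.15, adjusted p = 4.77e-07), ALX1 was lower (-2.51 ± 0.34) and SOX9 was lower (-1.29 ± 0.18). Neither line overlapped the other at any of these 5 genes, which were named as called extremes of their list. Over all tested regions the share without overlap was 72.2%.

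Signalling pathways showed single genes with large differences within divided lists. Of 26 genes of the TGF-beta and BMP pathway, 10 were higher and 10 lower (median 0.01, or 0.20 relative to all gene promoters). The relative median was 0.28 after quantile normalization and 0.20 after GC removal. BMP4, a secreted ligand, had 242, 229 and 238 in SCC25 and 24.7 and 14.5 in SCC1 (3.57 ± 0.21, adjusted p = 5.05e-08), and BMP7 was higher too (1.40 ± 0.36). The receptors differed in direction, with TGFBR1 at 633, 613 and 597 against 195 and 234 (1.52 ± 0.10, adjusted p = 1.09e-07) and TGFBR2 at 115, 89.4 and 103 against 235 and 223 (-1.16 ± 0.15, adjusted p = 2.35e-05). TGFBR1 lies in a segment of chromosome 9 that was higher and TGFBR2 in a segment of chromosome 3 that was lower. The activin receptors ACVR1, in a region shared with UPP2 (-1.12 ± 0.13), and ACVR2A (-1.10 ± 0.12) were also lower. In the WNT list, 8 of 29 were higher and 7 lower (median -0.01, or 0.17 relative to all gene promoters). SFRP1, a secreted WNT antagonist, had 87.1, 70.7 and 93.3 against 6.51 and 7.82 (3.37 ± 0.27, adjusted p = 6.01e-07), TCF7, a nuclear effector, had 213, 168 and 165 against 26 and 13.4 (3.21 ± 0.25, adjusted p = 4.22e-07), and the ligand WNT5B was higher (2.66 ± 0.43). The lines did not overlap at these genes, nor at CTNNB1, which encodes beta-catenin and was lower (-1.17 ± 0.23), as were the receptors FZD4 (-0.92 ± 0.13) and FZD1 (-0.87 ± 0.12). In the NOTCH list, 3 of 15 were higher and 5 were lower. The higher ones were NOTCH1 with 169, 144 and 190 against 80.7 and 78.2 (1.06 ± 0.16, adjusted p = 8.03e-05), NUMB (0.58 ± 0.11) and HES4, whose region is shared with ISG15 (0.90 ± 0.22). None of these 3 was called in the cetuximab libraries, where NOTCH1 had 0.04 (adjusted p = 0.888), NUMB -0.08 (0.693) and HES4 -0.20 (0.476). The coactivator MAML2 was lowest (-1.48 ± 0.18), then RBPJ, the DNA-binding partner of NOTCH (-0.95 ± 0.14), and MAML1 (-0.72 ± 0.15, with -0.27 and adjusted p = 0.217 after GC removal).

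Immune genes were mostly less open in SCC25. Of 24 interferon and antigen presentation genes, 13 were lower and 5 higher (median -0.49, or -0.30 relative to all gene promoters). IFIT2, an interferon-induced gene, had 11.7, 18 and 11.9 in SCC25 and 62.5 and 61.4 in SCC1 (-2.11 ± 0.32, adjusted p = 8.92e-05), and CD274, the checkpoint ligand PD-L1, had 44.8, 54.1 and 55.1 against 161 and 125 (-1.46 ± 0.19, adjusted p = 3.24e-05). The lines did not overlap at either. CIITA, the switch of MHC class II genes, went the other way, with 70.1, 67.1 and 61.9 against 13 and 22.3 (adjusted p = 6.44e-05), and IRF9 was higher (0.60 ± 0.15; not called by DESeq2, adjusted p = 0.0509). Of 19 cytokine and chemokine genes, 11 were lower and 2 higher (median -0.75, or -0.56 relative to all gene promoters). After quantile normalization and after GC removal the relative medians were -0.22 and -0.35 for the interferon list and -0.45 and -0.60 for the cytokine list. The neutrophil chemokines CXCL8 (-1.88 ± 0.30) and CXCL2 (-1.82 ± 0.21) and the cytokine LIF (-1.83 ± 0.52, not called after GC removal, adjusted p = 0.0816) were lowest, and the growth factor gene CSF2 was higher, with 130, 136 and 118 against 41.6 and 56.9 (1.37 ± 0.18, adjusted p = 3.81e-05), as was IL1RN (0.70 ± 0.17). CXCL8 and CXCL2 lie side by side in a segment of chromosome 4 that was lower as a whole (median -1.09, promoters -0.92). LIF and CD274 lie in lower segments of chromosomes 22 and 9, and CIITA and IRF9 in higher ones of chromosomes 16 and 14. The part of such segments, and of neighbouring genes in them, in these list medians was not tested. Of 6 markers of other cell types tested at promoters, CD14, a monocyte gene, was lower (-1.82 ± 0.26) and MITF was lower (-1.14 ± 0.16), and 4 were not called.

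In the NRF2 pathway of oxidative stress, 5 of 17 promoters were higher and 7 lower (median -0.26). GPX2, a glutathione peroxidase, had 167, 168 and 148 in SCC25 and 11.7 and 17.9 in SCC1 (3.38 ± 0.22, adjusted p = 9.72e-08), and GCLM of glutathione synthesis had 294, 268 and 286 against 121 and 128 (1.17 ± 0.12, adjusted p = 3.25e-06). The efflux pump ABCC1 was higher (1.01 ± 0.30), though not called by DESeq2 (adjusted p = 0.0798) or after quantile normalization (0.102). OSGIN1 (-1.24 ± 0.16), ME1 (-1.15 ± 0.13) and HMOX1 (-1.08 ± 0.23) were lower, the last not after GC removal (adjusted p = 0.103). Among 18 genes of the G1 phase and of CDK inhibition, 4 were higher and 7 lower. CCNE1, cyclin E1, was highest (1.10 ± 0.20), then CDKN2D (0.69 ± 0.16). CDKN2B had 143, 144 and 130 against 324 and 241 (-1.01 ± 0.14, adjusted p = 5.96e-05) and CDKN2A had 80.6, 78.6 and 50.9 against 120 and 150 (-0.95 ± 0.22, adjusted p = 0.00194; -0.52, adjusted p = 0.122, after GC removal). Both inhibitor genes had reads in SCC25 and in SCC1, while their mean signal was 0.988 in the SCC6 PBS libraries. Of 23 constitutive genes, taken as a background group, 1 was higher (RPL13A, 0.78 ± 0.21) and 9 were lower, with a median of -0.22, and ACTB (-0.73 ± 0.16) and GUSB (-1.19 ± 0.35) were among the lower ones, neither called after GC removal (adjusted p = 0.21 and 0.153). Of 23 cancer testis antigen genes, 1 had a tested promoter, and it was not called.

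**Figure D2:**
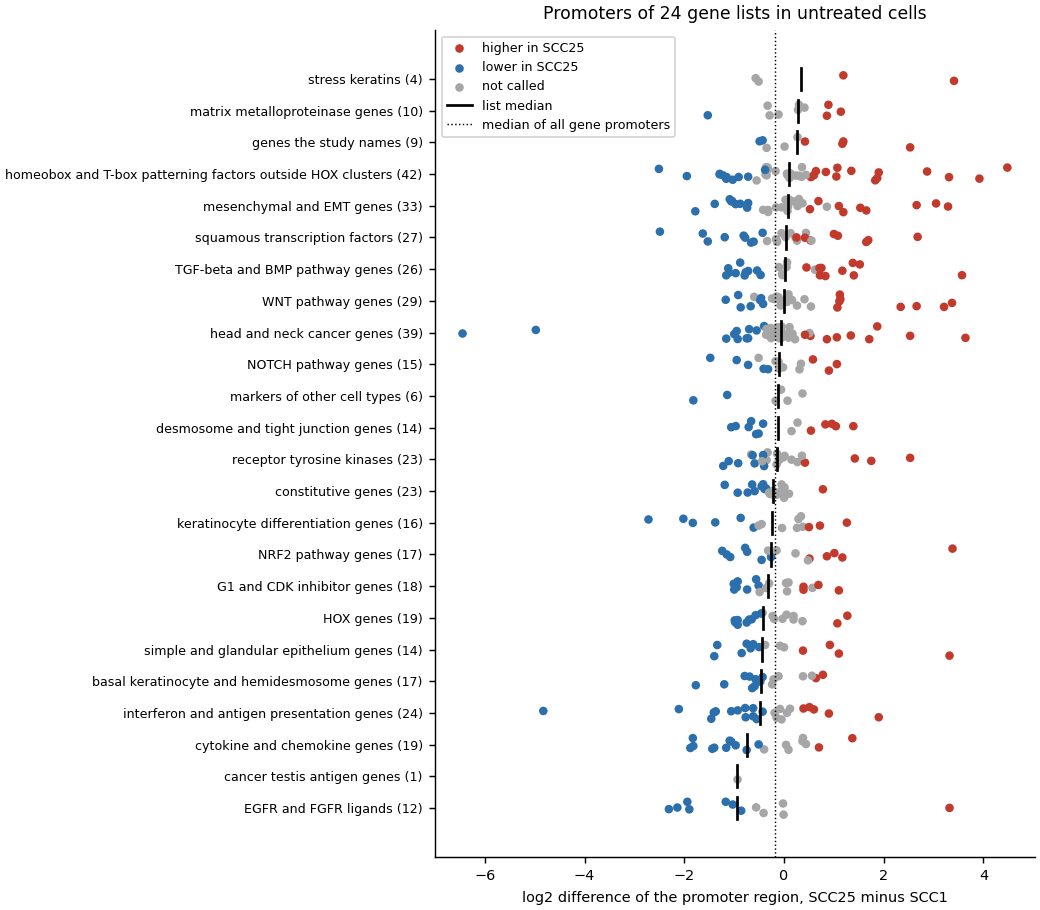
Log2 difference of the promoter region (SCC25 minus SCC1) for each tested member of 24 gene lists, ordered by list median, with the number tested in brackets; red and blue points were called higher and lower in SCC25, grey points were not called, black bars are list medians and the dotted line is the median of all gene promoters, -0.19. The ligand list (-0.95) and the cytokine and chemokine list (-0.75) lie left of that line, and the lowest single points are FHIT and FAT1 among the head and neck cancer genes and MX1 among the interferon genes.

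Regions over 1 kb from any protein-coding start site, which can hold start sites of non-coding genes, repeated the pattern of large differences. Of the 4 higher ones with the smallest adjusted p, 3 were a region on chromosome 9 in the non-coding gene ENSG00000290551, named after the closest start site, that of SPATA31D1, with 343, 371 and 360 in SCC25 and 3.9 and 3.35 in SCC1 (6.28 ± 0.19, adjusted p = 1.61e-09), a region in an intron of the semaphorin gene SEMA5A with 688, 601 and 583 against 28.6 and 34.6 (4.26 ± 0.13, adjusted p = 1.61e-09), and a region in an exon of BICD2 near IPPK with 456, 413 and 462 against 15.6 and 19 (4.61 ± 0.15, adjusted p = 2.14e-09). Of the 4 lower ones, 3 were a region between genes near AMOTL2 with 20.3, 20.2 and 16.1 against 354 and 304 (-4.05 ± 0.21, adjusted p = 1.98e-08), a region in an intron of CRIM1 with 8.29, 7.93 and 7.63 against 258 and 249 (-4.83 ± 0.26, adjusted p = 2.52e-08), and a region in the non-coding gene LNCRNA-IUR near ENDOD1 with 29, 25.2 and 21.2 against 329 and 300 (-3.60 ± 0.20, adjusted p = 3.05e-08). They were chosen among regions whose lines do not overlap, so the separation of the lines in each describes its values only. The nearest protein-coding start site lay 501 kb from the first region, 77.7 kb from that in SEMA5A, 45.3 kb from that in BICD2, 34.3 kb from that near AMOTL2, 24.6 kb from that in CRIM1 and 61.3 kb from that near ENDOD1, so that the gene names mark places only.

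The central 150 bases of these 6 regions are given below because they show the DNA that is open in one line and nearly closed in the other. Letters are from the plus strand of GRCh37, at chr9:85105179-85105328, chr5:9467934-9468083, chr9:95478066-95478215, chr3:134056105-134056254, chr2:36608339-36608488 and chr11:94884579-94884728 in order. Capitals mark a match on either strand to 1 of the 14 motifs searched.
Higher, near SPATA31D1: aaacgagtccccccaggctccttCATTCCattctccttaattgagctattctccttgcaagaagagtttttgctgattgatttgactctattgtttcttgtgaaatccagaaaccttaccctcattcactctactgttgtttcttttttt
Higher, in SEMA5A: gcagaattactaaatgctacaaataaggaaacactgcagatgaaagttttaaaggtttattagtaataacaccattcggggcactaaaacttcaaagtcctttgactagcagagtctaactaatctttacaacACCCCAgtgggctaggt
Higher, near IPPK: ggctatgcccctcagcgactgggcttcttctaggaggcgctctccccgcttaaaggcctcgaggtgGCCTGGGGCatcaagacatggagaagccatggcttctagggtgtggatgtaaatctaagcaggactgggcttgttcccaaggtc
Lower, near AMOTL2: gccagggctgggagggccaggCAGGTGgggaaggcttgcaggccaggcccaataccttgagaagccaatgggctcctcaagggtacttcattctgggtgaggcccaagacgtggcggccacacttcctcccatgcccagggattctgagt
Lower, in CRIM1: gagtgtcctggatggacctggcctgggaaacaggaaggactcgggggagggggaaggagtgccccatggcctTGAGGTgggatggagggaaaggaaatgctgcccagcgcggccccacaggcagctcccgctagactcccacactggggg
Lower, near ENDOD1: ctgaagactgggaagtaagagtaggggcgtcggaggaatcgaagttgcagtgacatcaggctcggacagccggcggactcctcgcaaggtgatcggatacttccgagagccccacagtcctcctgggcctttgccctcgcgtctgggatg
The capitals are a TEAD match near SPATA31D1, RUNX matches in SEMA5A and CRIM1, a TFAP2 match near IPPK and an E-box of SNAI and ZEB factors near AMOTL2. The sequence near ENDOD1 held none of the searched letters. Such matches describe letters and do not show that a factor binds.

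Over all 71768 distal regions, the central 200 bases of higher and lower regions differed in motif content. The RUNX letters TGNGGT stood in 47.9% of higher, 34.2% of lower and 41% of all regions, and the AP-1 letters TGANTCA in 41.4%, 35.2% and 37.8%. The forkhead letters TGTTTAC stood in 6.51%, 3.26% and 5.19%, and the GATA letters AGATAA in 14.3%, 10.3% and 12.2%. These motifs, and the SOX letters ACAATG (13%, 10.1% and 11.6%), were more frequent on the higher side. On the lower side were the TFAP2 letters GCCNNNGGC (5.31%, 10.8% and 7.61%), the TEAD letters GGAATG (18.9%, 23.1% and 20.5%) and the ETS letters CCGGAA (2.48%, 4.31% and 3.09%). The NF-kB motif stood in 0.815% of higher and 1.93% of lower regions, and in 4.14% of those over 4-fold lower. The p63 motif stood in 1.69%, 1.63% and 1.48%. The remaining motifs searched were CEBP as TTGCNCAA (3.02%, 4.46% and 3.53%), GRHL as AACCNGTT (2.09%, 2.85% and 2.56%), the E-box CAGGTG (16.3%, 19.8% and 18.6%) and the IRF motif (2.39%, 3.03% and 2.71%). Both strands were read, and ETS and TEAD letters share GGAA and can overlap. The median GC content was 45.2% in higher, 48.4% in lower and 46.7% in all distal regions, and its part in these shares was not tested.

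The differences were not spread evenly along the chromosomes. Of 575 windows of 5 Mb with at least 20 tested regions, 262 were higher in SCC25 (45.6%) and 246 lower (42.8%) after each library was centred. Adjacent called windows whose median lay at least 0.4 from the genome median formed 61 segments, 25 higher over 550 Mb and 36 lower over 725 Mb. In 31 of them, 15 higher and 16 lower, promoters, distal regions and regions with no peak called in any of the 5 libraries each lay past 0.4 in the same direction, each class read against its own genome-wide median. In the cetuximab libraries 60 of the 61 segments had the same sign and 56 lay past 0.4. DNA copy number was not measured here, so a difference in copies and a difference in accessibility cannot be told apart.

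**Figure D3:**
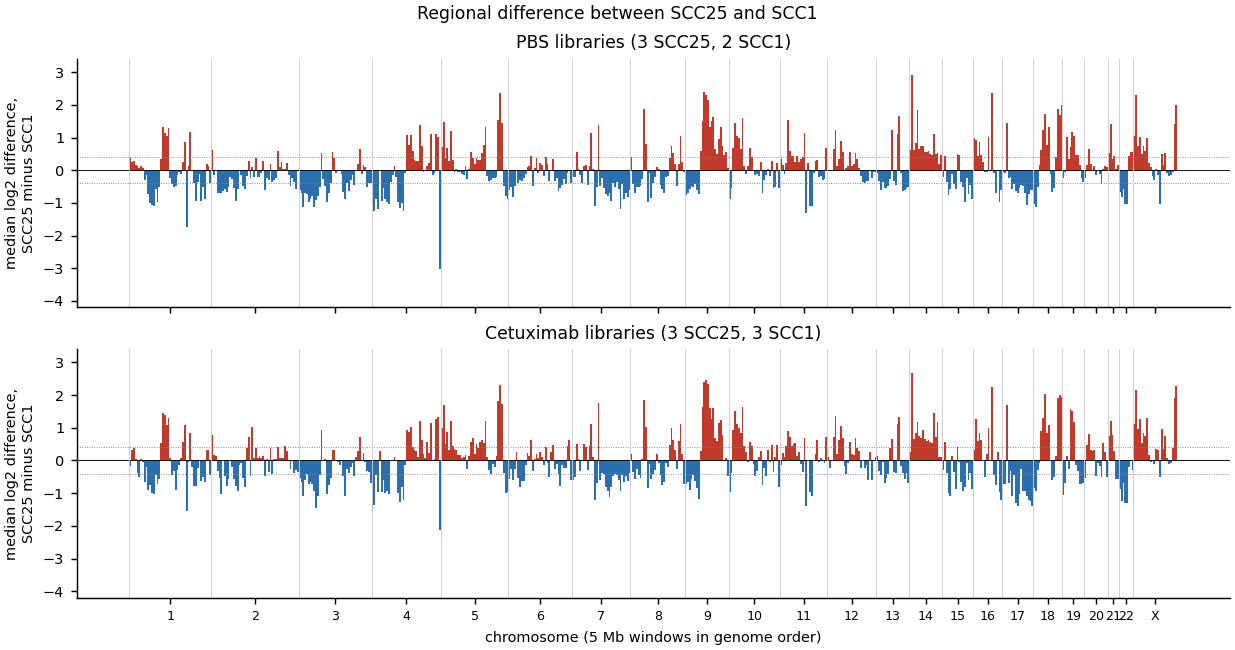
Median log2 difference (SCC25 minus SCC1) in 5 Mb windows along chromosomes 1 to 22 and X, for the PBS libraries above and the cetuximab libraries below, with dotted lines at 0.4 and -0.4. Runs of windows of one sign, such as the higher long arm of chromosome 9 and the lower short arm of chromosome 3, stand at the same places in both panels.

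The longest higher segments were on chromosomes 14 and 9. chr14:20000001-100000000 had a median log2 difference of 0.70 over 2908 regions (promoters 0.69, regions with no peak 0.62), and the cancer gene AJUBA in it was not called at its promoter (-0.09, adjusted p = 0.746). NRXN3, BMP4, GPX2, FOXA1, TGM1, NUMB and IRF9, described above, also lie in this segment. Its part in the values of these genes was not tested. chr9:65000001-140000000 had a median of 1.22 over 3010 regions, of which 2092 were higher and 117 lower, with 1.01 at promoters and 0.93 at regions with no peak. NOTCH1, TGFBR1, FOXE1, NTRK2, ROR2, LHX2, CDK5RAP2 and CEMIP2, described above, all lie within it. The same segment had a median of 0.59 in SCC25 against SCC6 and -0.55 in SCC1 against SCC6, untested. On the short arm the direction turned. chr9:1-40000000 had a median of -0.64 (promoters -0.55, regions with no peak -0.32) and holds CDKN2A, MTAP (-0.93 ± 0.15), PTPRD (-0.75 ± 0.16) and CD274.

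The longest lower segment was chr3:1-60000000, with a median of -0.85 over 1465 regions (promoters -0.69, regions with no peak -0.53). TGFBR2 and CTNNB1 lie in it. Chromosome 4 had 3 lower segments with medians of -1.13 (chr4:1-20000000, with FGFBP1), -0.89 (chr4:25000001-50000000, with RBPJ) and -1.09 (chr4:70000001-90000000, with BTC, CXCL8 and CXCL2). Farther along, chr4:95000001-115000000, which holds EGF, was higher (0.79). Chromosome 1 alternated in the same way, with -0.95 over chr1:50000001-85000000 and 1.21 over chr1:90000001-110000000, the segment of GCLM and TGFBR3. The single window chr1:180000001-185000000, which formed no segment, had a median of -1.74 over 190 regions (promoters -1.58, regions with no peak -1.07). EDEM3 and LAMC1 lie in that window. Other strong segments were chr5:155000001-170000000 (1.67), chr18:60000001-80000000 (1.40), chr18:20000001-45000000 (1.17, with DSG2 and DSC3), chr10:10000001-40000000 (0.96, with VIM and ITGB1), chrX:1-40000000 (1.00), chr22:15000001-40000000 (-0.86, with HMOX1, LIF and TIMP3) and chr7:125000001-160000000 (-0.70, with EPHA1).

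Some segments were carried by distal regions and not by promoters. In chr5:1-10000000, which holds TERT and the SEMA5A region, the median was 1.07 over all regions and 0.11 over promoters. In chr5:110000001-125000000 these values were 0.88 and -0.06, in chr13:80000001-90000000 1.43 and -0.25, and in chrX:135000001-155000000 1.58 and -0.03. Regions with no called peak in the same 4 segments stood at 0.52, 0.70, 1.19 and 1.87, from 53, 31, 16 and 5 regions. The promoter values came from 34, 53, 5 and 13 regions, so those of chromosomes 13 and X rest on few.

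**Figure D4:**
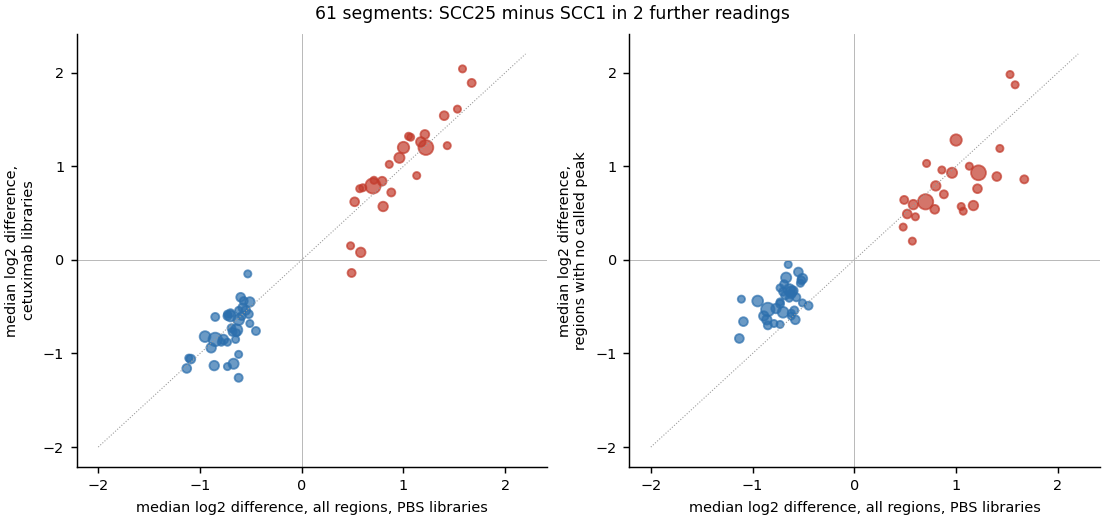
Each of the 61 segments as a point, sized by length, with the median log2 difference (SCC25 minus SCC1) of all its regions in the PBS libraries on the horizontal axes, against the same median in the cetuximab libraries (left) and in the regions with no called peak (right). Higher segments are red and lower ones blue, the dotted line marks equal values, and 60 of 61 segments keep their sign in the cetuximab libraries.

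In the head and neck cancer list, some genes lay in higher stretches of chromosomes 11 and 8. Others lay in lower segments not named above, which were chr17:35000001-50000000 (median -0.62, with ERBB2), chr7:85000001-110000000 (-0.77, with CDK6), chr15:90000001-105000000 (-0.70, with IGF1R) and chr5:170000001-185000000 (-0.69, with NSD1). On the long arm of chromosome 11, 1 Mb windows from 69 to 73 Mb had medians of 1.43, 2.03, 1.32, 1.18 and 1.06, and the window at 74 Mb had -1.36. ANO1 (314, 270 and 281 in SCC25, 22.1 and 22.3 in SCC1), FADD, a death receptor adaptor (428, 435 and 360 against 96.3 and 126, 1.87 ± 0.14, adjusted p = 2.67e-07), and CTTN, cortactin (1.71 ± 0.11, adjusted p = 1.03e-07), lie there. CTTN was named after its values were seen. All 8 tested regions within 100 kb of ANO1 were higher, with a median of 3.30. The cyclin D1 gene CCND1 had no region within 1 kb of a start site, but 4 of the 5 tested regions within 100 kb of it were higher (median 1.75). From 74 Mb the windows were mainly lower up to 96 Mb, with exceptions at 79, 80, 81, 83 and 91 Mb. CEP57 and MAML2 lie in that lower stretch.

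On chromosome 8, chr8:35000001-45000000 had a median of 1.53 (promoters 1.19, regions with no peak 1.98), and the 1 Mb windows at 35 and 36 Mb reached 3.72 and 3.17. It holds FGFR1, with all 7 tested regions within 100 kb higher, SFRP1, and the histone methyltransferase gene NSD3 (238, 211 and 258 in SCC25, 85.9 and 99.4 in SCC1, 1.34 ± 0.14, adjusted p = 4.87e-06). The segment stood at 1.41 in SCC25 against SCC6 and at -0.05 in SCC1 against SCC6, untested. Away from this segment, the 2 other distal regions named by rule were also on chromosome 8, 1 of them 610 kb from the start of CSMD3 (715, 709 and 672 in SCC25, 45.5 and 43.5 in SCC1, 3.94 ± 0.11, adjusted p = 1.06e-09) and 1 of them 122 kb from that of DCAF4L2 (8.67, 5.77 and 10.2 against 319 and 301, -5.11 ± 0.28, adjusted p = 3.00e-08). Over all head and neck cancer genes, 39 of 43 had a tested promoter, of which 9 were higher, 11 lower and 19 not called (median -0.06). PIK3CA (-0.06, adjusted p = 0.598), named after its values were seen, was among those not called. Over all windows of 1 Mb with at least 8 regions, 244 of 2626 had a median past 1.5, of which 214 were higher and 30 lower.

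The lowest windows of all were stretches in which SCC25 had no signal. On chromosome 4, in chr4:186699565-190003309, all 113 deposited regions over 3.3 Mb held at most 1 read in every SCC25 PBS library and in every SCC25 cetuximab library. In SCC1, 58 of them had a mean signal of at least 20, with a median of 51.1, and the median over all 113 was 21.4. The stretch holds FAT1, a protocadherin that is often lost in squamous carcinoma, CYP4V2, ZFP42 and TRIML2. FAT1 had 58.5 and 43.5 in SCC1 and 0.377, 0.721 and 0.848 in SCC25, the level of 1 read, which was at least 26.2-fold lower against a floor of 3 reads per library (adjusted p = 5.36e-06). By the same floor ZFP42 was at least 111-fold lower (adjusted p = 6.87e-08). All 16 tested regions within 100 kb of FAT1 were lower. The 1 Mb windows at 187, 188 and 189 Mb had medians of -4.89, -4.76 and -4.82, next to 0.12 at 186 Mb.

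A pair of such stretches lay on chromosome 21. chr21:41696839-43171967 (1.48 Mb, 40 deposited regions) holds MX1, an interferon-induced antiviral gene, and BACE2. MX1 had 33.8 and 61.4 in SCC1 and at most 1 read in each SCC25 library, at least 24.5-fold lower (adjusted p = 9.48e-06). After a break of a single region, chr21:43187111-43518285 (0.331 Mb, 17 regions) holds RIPK4, a kinase of keratinocyte differentiation, C2CD2 and ZBTB21. RIPK4 had 23.4 and 27.9 in SCC1 and at most 1 read in SCC25 (adjusted p = 5.94e-05). The SCC1 mean was at least 20 in 14 of the 40 regions (median of those 47.7) and in 6 of the 17 (38.8), and over all regions of each stretch its median was 9.86 and 10.7.

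FHIT, a fragile site gene of chromosome 3, was a narrow case. Its promoter had 141 and 143 in SCC1, a mean of 185 in the SCC6 PBS libraries and at most 1 read in each SCC25 library, at least 72.8-fold lower (adjusted p = 1.98e-07). Only 3 adjacent regions, chr3:61167684-61237350 (0.0697 Mb), were at that level, with a median of 115 in SCC1, and the 1 Mb window around them had a median of 1.08. By the rule for runs (at least 4 adjacent regions, 1 of them a promoter, with at most 2 reads in every library of a line and a mean of at least 20 in the other), 4 runs were found in SCC25, at RIPK4 (4 regions), FAT1 (10), ZFP42 (7) and TRIML2 (9), and none in SCC1. The SCC1 libraries were shallower, with 1 read worth 1.3 and 1.12, so that a floor there is a weaker limit. A loss of DNA and a fully closed stretch cannot be told apart from these reads.

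**Figure D5:**
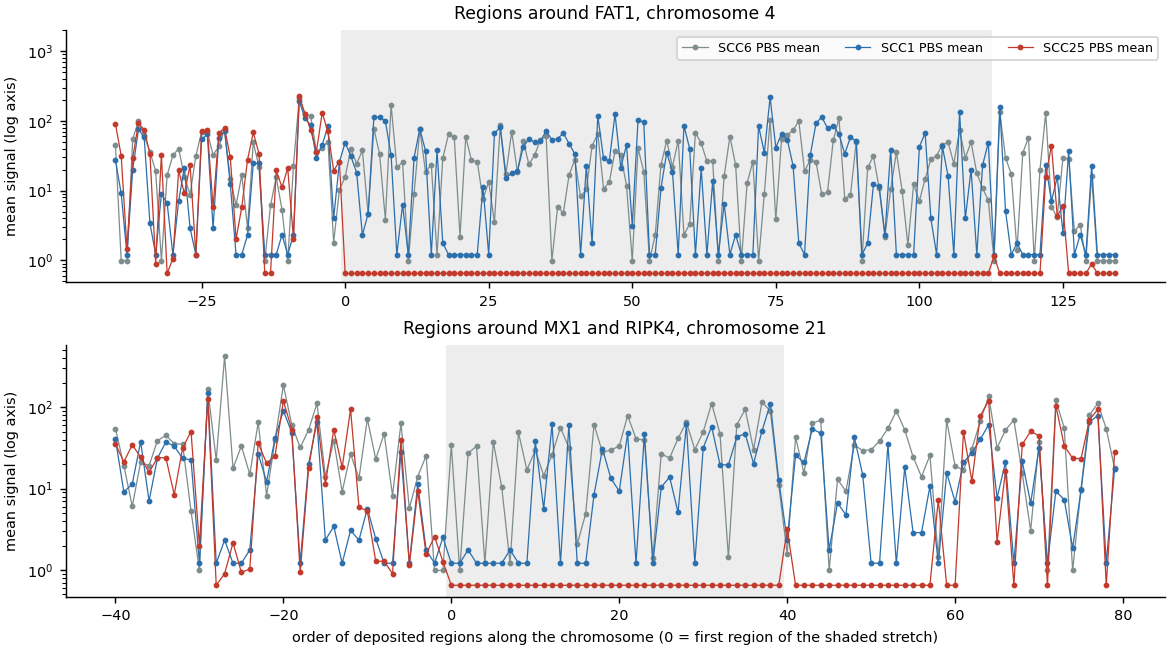
Mean signal (log axis) of the PBS libraries of SCC25 (red), SCC1 (blue) and SCC6 (grey) at consecutive deposited regions around FAT1 on chromosome 4 (top) and MX1 on chromosome 21 (bottom), in order along the chromosome with 0 at the first region of the shaded stretch. SCC25 stays at 0.649, the mean level of 1 read, through 113 and 40 shaded regions, where SCC1 and SCC6 rise and fall up to about the level outside.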

How the data were processed

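ATAC-seq libraries of SCC25 and SCC1 given PBS were compared in the table of merged regions (GRCh37). Per the sources used here, the authors trimmed reads with Trim Galore 0.5.0, aligned them with Bowtie2 2.3.2, handled them with Picard 2.18 and SAMtools 1.9, called peaks with MACS2 (version not given in the sources used here) for each library, and merged peaks and counted reads in them with DiffBind. The deposited signal is a read count scaled for each library. Every value was a whole multiple of 1 step per library within a tolerance of 0.001 (100% of values), and a stored 1 stands for 0 or 1 read. The deposited peak files give a fold enrichment ratio and a −log10 q-value for each peak, and were used only to mark regions with a called peak (34763 to 81963 peaks per library).

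Regions were tested with limma 3.58.1 (trend and robust options, two-sided) on log2(signal + 1), in the 5 libraries, with Benjamini-Hochberg adjustment over 86315 regions and calls at 0.05. Each gene was read at the promoter region of highest mean signal within 1 kb of its start sites (GENCODE release 44 mapped to GRCh37), which left 11330 distinct regions for 12723 genes. Windows of 5 Mb were tested with limma on library-centred means. edgeR 4.0.16 and DESeq2 1.42.0 on the recovered reads were alternatives and called 52963 and 45719 regions. The fits were tested on simulated data. The ± values are limma standard errors and measure the spread between these libraries, while floors cover counting error only. Reads carry no molecular identifiers.

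The 24 gene lists and the comparison itself were chosen with earlier results of these data known. The text names up to 3 called genes at each end of every list, all genes the study names, the 8 gene promoters and 4 distal regions in each direction with the smallest adjusted p (lines apart, mean signal of at least 50 in the higher line), and cancer genes in segments, with exceptions stated. The main fit has no replicate term, since the labels do not say that a replicate number is shared between lines. A few genes that the rule names are not reported here.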

Additional observations from a re-analysis of the deposited data

Results flagged for a closer look

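For 6 of the 144 named regions, the difference between the lines itself differed between the PBS and the cetuximab libraries as tested by a line-by-drug term (limma, adjusted over all tested regions), as it did for 1.44% of all tested regions. Of the named regions, 5 are given here. At CSF2 the log2 difference was 1.37 with PBS and 3.38 with cetuximab (adjusted p = 0.0127), with 7.62, 15.6 and 7.82 in the SCC1 cetuximab libraries and 41.6 and 56.9 in the SCC1 PBS libraries. At the region near IPPK it was 4.61 and 2.76 (adjusted p = 0.000776), with 47, 66.2 and 62.6 in SCC1 with cetuximab against 15.6 and 19 with PBS. At CD151 it was 0.78 and -0.29 (adjusted p = 0.0462), at IRF9 0.60 and -0.35 (adjusted p = 0.0489) and at the constitutive gene RPL13A 0.78 and -0.58 (adjusted p = 0.0324). In CD151, IRF9 and RPL13A the line difference was called with PBS, and with cetuximab only that of RPL13A was (adjusted p = 0.216, 0.11 and 0.0294).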

How the results depend on the processing

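The number of regions and gene promoters called stayed within 1.5 times the reported one under every alternative tried, but not the balance of directions given in the report. Regions called higher and lower were 27193 and 25770 with edgeR and 23324 and 22395 with DESeq2. A filter on the mean of all 17 libraries, chosen after seeing the data because the filter on the 5 libraries leans to the line with more of them, gave 24592 and 20773 with a median of -0.06. Leaving out 1 library gave 44591 to 49682 regions, 5889 to 6573 gene promoters, 487 to 503 windows and 61 to 66 segments. Windows called were 246 of 303 with promoters alone, 163 of 283 with regions without a peak, 283 of 302 at 10 Mb and 1112 of 1303 at 2 Mb, where the number of windows differs by construction. A replicate block gave 45771 regions and 6242 gene promoters. Deviations of the same-numbered libraries did not go together (r = -0.0052 and -0.00294). With 2 SCC1 libraries, whose deviations mirror each other, these values cannot decide whether replicate numbers are paired. Of the calls named, the block ended those of GUSB (-0.82, adjusted p = 0.0607), HOXC11 (0.052) and VEGFA (0.17). Of 2160 combinations of named region and alternative, 2091 kept direction and call, 60 lost the call, 3 gained it and 6 turned. The 6 were EGFR by DESeq2 (-0.11), by edgeR (-0.09), with libraries centred (-0.22), without SCC1 replicate 3 (-0.08) and without SCC25 replicate 1 (-0.07), within a range of -0.08 to 0.10 over libraries left out, and ERBB2 after GC removal (0.04). The cause was not tested. Relative to all gene promoters, 20 of the 24 list medians kept their sign under the 3 scaling settings. The main limits are 2 SCC1 libraries, their lower depth, and the absence of a DNA measurement here.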
